A study of Homo sapiens with 42 samples.

Results

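The response of T-lineage leukaemia lines to L-asparaginase was compared with that of B-lineage lines. The comparison took in all 42 libraries of the study. They form 14 groups of 3, from 7 human acute lymphoblastic leukaemia lines that were each treated or left untreated. The T-lineage lines (T lines) were CEM and DND41, each treated with L-asparaginase at 1 IU/ml for 4 h or untreated. The B-precursor lines (B lines) were Nalm6, SUPB15, RS411, REH and 697, treated or untreated in the same way. All lines grew in the same serum-containing medium with glutamine, and the labels name no genotype, transgene or other agent. The labels name the lines and not their lineage, which is known for these lines and was checked by marker genes below. Each line is a single established culture, so the T lineage rests on 2 lines and the B lineage on 5. A response is the log2 ratio of a gene's level in L-asparaginase-treated libraries to its level in untreated libraries of the same line. The contrast reported for each gene is the mean response of the 2 T lines minus the mean response of the 5 B lines, and a positive contrast means a higher response in T lines. A gene was called separated where the responses of both T lines lay above, or both below, those of all 5 B lines. Of 50648 genes joined across the tables, 20983 had enough counts to be tested.

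L-asparaginase hydrolyses asparagine, and to a lesser degree glutamine, outside the cell. Lymphoblasts make little asparagine of their own, which is why the enzyme is used against this leukaemia. Cells that run short of an amino acid accumulate uncharged tRNA, which activates the kinase GCN2. Phosphorylation of the initiation factor eIF2 then slows translation in general and raises translation of the transcription factor ATF4, which drives genes for amino acid synthesis and import. Treatment of T-cell disease uses the same enzyme, and T and B lymphoblasts differ in lineage factors, antigen receptor genes and NOTCH signalling.

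Library totals lay between 15.07 M and 77.14 M counts (M, mega). Treated CEM libraries held 50.81 to 71.52 M and untreated CEM libraries 22.68 to 31.6 M counts. Levels below are in CPM, a library's counts scaled to a common total with TMM factors. The lineage assignments held: the median level of 12 T-lineage markers was 113 to 167 CPM in the T-line groups and at most 0.184 CPM in the B-line groups, and that of 12 B-lineage markers was 1.39 to 4.11 CPM in the T-line groups and 109 to 212 CPM in the B-line groups. Medians of the erythroid markers were 0 in every group, those of NK and stromal markers were at most 0.0445 CPM, and those of 8 myeloid markers at most 0.021 CPM in the T lines and 0.675 CPM in the B lines. Single myeloid markers were expressed in B lines: MPO averaged 31.3 CPM in treated and 35.3 CPM in untreated REH, and CSF1R 19.7 CPM in treated and 8.46 CPM in untreated RS411. In all 5 B lines the treated mean of CSF1R lay above the untreated mean. Single T-lineage and stromal markers were also expressed in B lines. The T-lineage marker LCK averaged 106 CPM in treated and 72 CPM in untreated RS411. In treated and untreated 697, the T-lineage marker BCL11B averaged 69.5 and 58.3 CPM and the stromal marker PDGFRB 119 and 54.7 CPM. PDGFRB also averaged 70.7 CPM in treated and 44.4 CPM in untreated DND41. Among treated B-line libraries, SUPB15 C held 99 genes at 1 CPM or more that had at most 3 counts in the other 5 SUPB15 libraries together, REH A held 19 such genes and RS411 B held 3. Of untreated libraries, 5 (the first of Nalm6, SUPB15, RS411, 697 and DND41) held 3.35% to 7.23% of their counts in 5 small structural RNAs, against a median of 11% over all 42. The treated DND41 A library, at 5.77%, lay in the same range and was kept when those 5 were left out. The study ran 3 separate experiments per line, so p-values measure the spread between experiments on the same line.

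The drug response differed between the lineages for 1207 genes, which is 5.75% of those tested (edgeR quasi-likelihood test, Benjamini-Hochberg adjusted p under 0.05). The contrast was positive for 625 of them (2.98%) and negative for 582 (2.77%). Responses were separated for 2477 genes (11.8%), with the T lines above in 1170 (5.58%) and below in 1307 (6.23%). The genes both called and separated numbered 584 (2.78%), of which 281 (1.34%) had the T lines above and 303 (1.44%) had them below. The separation uses the same responses as the contrast, so it describes the called genes and adds no evidence to the call. The mean response of the T lines was called higher than 0 for 12.9% of genes and lower for 11.9%, and that of the B lines for 16.2% and 17.9%. The libraries of a line are replicates of that line and not of its lineage. With the line as the unit, 2 T responses against 5 B responses, limma called 0 genes (0%), with a smallest adjusted p of 0.162. An unadjusted p under 0.05 was reached by 1379 of the 20983 genes tested. Of the 584 genes, 377 were among those with an unadjusted p under 0.05 in that test. The 584 were chosen for separated responses of the same lines, so this overlap adds no evidence. Every call below is therefore a difference between these 7 lines beyond the spread of their experiments, and the spread between lines of one lineage is given by the per-line responses. Leaving out 1 library gave between 804 calls (without DND41 untreated C) and 1554 (without 697 untreated 1). Without the 5 untreated libraries named above there were 2238 calls, without the 3 treated libraries named above 956, and with CEM as the only T line 409.

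**Figure D1:**
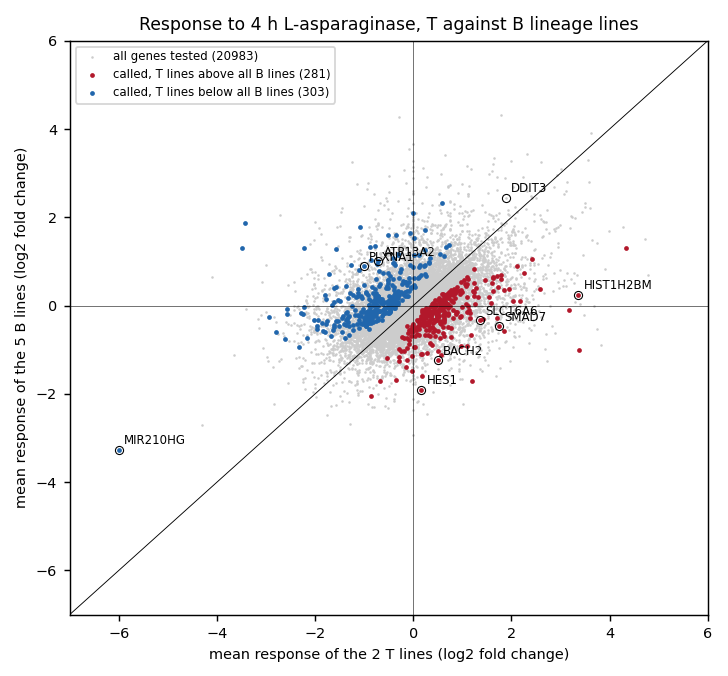
Mean response of the 2 T lines (x axis) against the mean response of the 5 B lines (y axis), both as log2 fold change of L-asparaginase over untreated, for the 20983 genes tested. Red points are the 281 genes called with both T lines above all B lines, blue points the 303 genes called with both T lines below, and rings mark named genes; the diagonal is equal response.

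Most of the 584 genes moved in 1 lineage and did not pass the test in the other. Among the 281 genes with the T lines above, 92 rose in the T lines with no call in the B lines, 90 fell in the B lines with no call in the T lines, 56 rose in both lineages, 39 rose in the T lines and fell in the B lines, and 3 fell in both. Among the 303 with the T lines below, 138 fell in the T lines with no call in the B lines, 66 rose in the B lines with no call in the T lines, 65 fell in both, 28 fell in the T lines and rose in the B lines, and 5 rose in both. The remaining gene in each direction was called in neither lineage mean. The 2 T lines did not always respond alike: the difference between CEM and DND41 was itself called for 12 of the 584 genes. Over all 20983 genes tested, that difference was called for 377.

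The largest positive contrasts among separated genes with at least 1 CPM in every line belonged to a histone, an inhibitor of TGF-beta signalling, a lymphocyte repressor and several membrane proteins. HIST1H2BM, which encodes an H2B core histone, had 445, 502 and 463 CPM in treated and 187, 212 and 103 CPM in untreated CEM. In DND41 it had 205, 155 and 171 CPM in treated and 7.26, 4.7 and 2.17 CPM in untreated libraries, the lowest untreated levels of any line. Treated and untreated libraries did not overlap in either T line. The contrast was 3.12 ± 0.27 on the log2 scale (SE), edgeR adjusted p 2.6e-09, with responses of 1.49 in CEM and 5.24 in DND41, which differed from each other (adjusted p 3.6e-06), against -0.58 to 0.85 in the B lines. Histone genes of a cluster are near-identical in sequence, so this value is uncertain: no source used here says how shared reads were counted.

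SMAD7, the inhibitory SMAD that damps TGF-beta receptor signalling, had 10.6, 11 and 11.1 CPM in treated and 5.16, 5.02 and 2.19 CPM in untreated CEM. It had 4.99, 8.8 and 7.22 CPM in treated and 1.46, 2.11 and 1.37 CPM in untreated DND41. Nalm6 went the other way, with 8.43, 11.7 and 11.4 CPM in treated and 24.5, 53.5 and 48 CPM in untreated libraries. The treated libraries lay above all untreated ones in both T lines, below them in Nalm6 and RS411, and overlapped them in SUPB15, REH and 697. The contrast was 2.21 ± 0.27 (SE, adjusted p 1.7e-06) and stayed called in every setting tried other than the test with the line as the unit, at 1.81 without Nalm6 and 1.43 when only REH and 697 stood for the B lineage.

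BACH2, a transcriptional repressor that restrains differentiation in B and T lymphocytes, fell in the B lines and rose on average in the T lines. Treated and untreated libraries did not overlap in any B line: REH had 41.6, 36.2 and 38.6 CPM in treated against 126, 114 and 110 CPM in untreated libraries, and 697 had 22.4, 19.4 and 28.1 CPM against 74.8, 77.5 and 76.3 CPM. CEM had 69, 66.1 and 52.6 CPM in treated and 48.8, 34.9 and 22.6 CPM in untreated libraries. DND41 held little of the transcript and its groups overlapped, with 4.81, 6.64 and 7.84 CPM in treated and 4.57, 6.43 and 6.09 CPM in untreated libraries. Responses were 0.82 in CEM and 0.17 in DND41, against -1.71 to -0.63 in the B lines, and the contrast was 1.73 ± 0.19 (SE, adjusted p 2.8e-07).

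SLC16A6, a member of the monocarboxylate transporter family, had a contrast of 1.69 ± 0.21 (SE, adjusted p 1.3e-06). Its treated and untreated levels were 65.4 to 70 and 19.1 to 26 CPM in CEM and 80.9 to 130 and 43.9 to 57 CPM in DND41. Nalm6 went the other way, with 7.34 to 8.56 CPM in treated and 19.5 to 28.6 CPM in untreated libraries. REH also fell, with 0.396 to 1.31 CPM in treated and 1.64 to 1.85 CPM in untreated libraries. In SUPB15, RS411 and 697 the groups overlapped, and the treated mean lay above the untreated one. LZTFL1, a regulator of protein traffic to cilia, had its highest levels in the T lines: CEM had 218, 198 and 207 CPM in treated and 83.1, 83 and 94.4 CPM in untreated libraries, DND41 had 245, 218 and 241 against 131, 104 and 110 CPM, and no B-line library exceeded 36.7 CPM. Its response was 1.26 in CEM and 1.03 in DND41, against -0.40 to 0.23 in the B lines. PLXNC1, a semaphorin receptor, rose to 8.55 to 9.84 CPM in treated CEM, against 3.27 to 4.52 CPM in untreated CEM, while 697 had 51.4 to 53.2 CPM in treated and 79.1 to 103 CPM in untreated libraries. Its responses in CEM (1.20) and DND41 (0.34) differed (adjusted p 0.022).

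The other genes of this group were RP11-705C15.3 and RP11-705C15.2 (contrasts 1.53 and 1.22), transcripts named for the same genomic clone that may share reads, the kinase MOK (1.48), the adhesion molecule CEACAM21 (1.31), the phospholipid flippase ATP10D (1.31) and the BMP co-receptor RGMA (1.27). The treated libraries of every line lay above the untreated ones for RP11-705C15.3, with 23 to 29.8 CPM in treated and 4.72 to 6.21 CPM in untreated CEM and 28 to 40.1 against 6.32 to 7.73 CPM in DND41. RGMA separated by the smallest margin, with a response of -0.07 in CEM against -0.08 in REH. All 12 contrasts stayed called when any single library was left out.

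**Figure D2:**
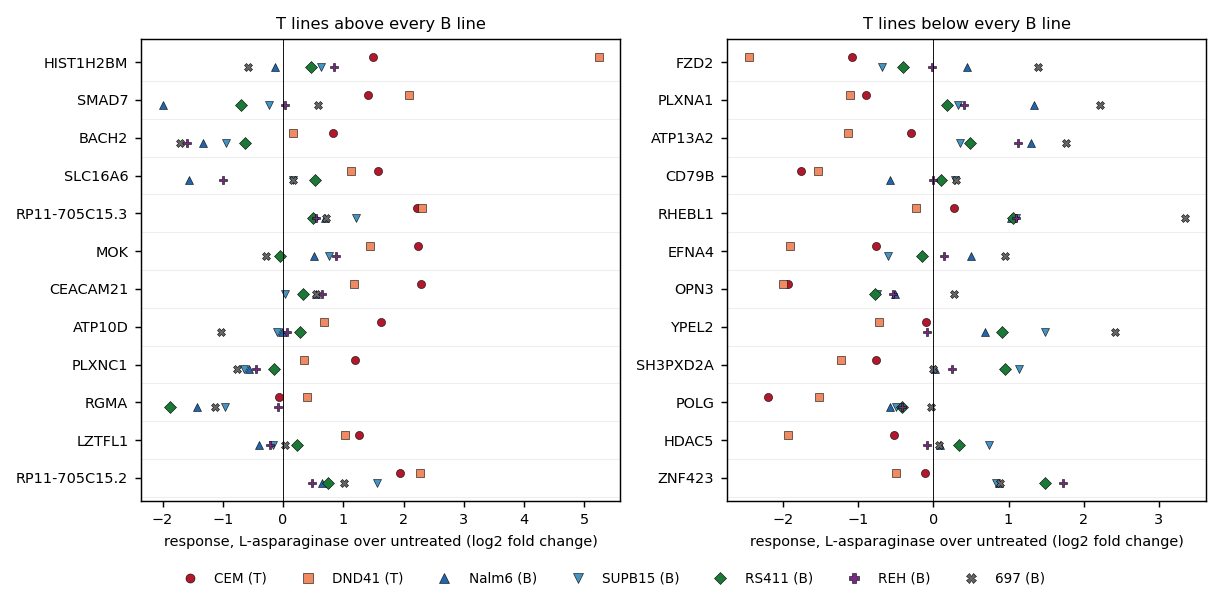
Response of each line (log2 fold change of L-asparaginase over untreated) for the 12 genes with the largest positive (left panel) and negative (right panel) contrast among those called, separated and at 1 CPM or more in every line. T lines are drawn in red and orange above the B lines of the same gene; HIST1H2BM in DND41 (5.24) is the farthest point.

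The largest negative contrasts among separated genes with at least 1 CPM in every line included receptors and ligands for guidance and Wnt signals, a lysosomal transporter and a chain of the B-cell receptor. PLXNA1, a semaphorin receptor, had 20, 17.6 and 17 CPM in treated and 36.9, 35.4 and 30.1 CPM in untreated CEM, and 21.3, 22.7 and 21.2 CPM in treated against 36.8, 55.1 and 48.7 CPM in untreated DND41. In 697 it had 59.2, 66.7 and 90.4 CPM in treated and 4.82, 21.2 and 20.3 CPM in untreated libraries. The treated libraries lay below the untreated ones in both T lines, above them in 4 B lines, and overlapped them in Nalm6, at 1.62 to 4.46 CPM in treated and 0.809 to 1.78 CPM in untreated libraries. The contrast was -1.90 ± 0.26 (SE, adjusted p 8.5e-06).

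ATP13A2, a lysosomal polyamine transporter, showed the same arrangement. It had 30.9, 29.4 and 33.2 CPM in treated and 38.7, 36.3 and 39.6 CPM in untreated CEM, and 16.6, 19.4 and 18.7 against 32.3, 41.7 and 46.8 CPM in DND41. Nalm6 had 160, 153 and 161 CPM in treated and 53.6, 64.7 and 73.6 CPM in untreated libraries, and REH had 50.1, 52.6 and 45.3 against 26.6, 21.1 and 20.4 CPM. Treated and untreated groups overlapped in SUPB15 alone, and the contrast was -1.72 ± 0.22 (SE, adjusted p 2.9e-06).

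FZD2, a Wnt receptor, had the largest negative contrast at 1 CPM in every line, -1.92 ± 0.37 (SE, adjusted p 0.001). Its levels were low in the T lines: 1.02 to 1.23 CPM in treated and 2.01 to 2.54 CPM in untreated CEM, and 0.537 to 0.594 against 0.928 to 4.66 CPM in DND41. It was no longer called with CEM as the only T line (-1.24). CD79B, the Ig-beta chain through which the B-cell receptor signals, had 5.67, 3.44 and 3.86 CPM in treated and 12.8, 15.7 and 15.3 CPM in untreated CEM, and 1.99, 3.31 and 2.61 against 4.69, 10.9 and 7.44 CPM in DND41. Its groups overlapped in all 5 B lines, where levels ran from 24.9 to 416 CPM, and the contrast was -1.67 ± 0.31 (SE, adjusted p 0.00076). Beside it, the summed level of the 12 B-lineage markers was 191 to 227 CPM in treated and 365 to 377 CPM in untreated CEM, and 1330 to 1500 CPM in treated and 2200 to 2920 CPM in untreated DND41, where PAX5 and CD22 were at 0 in both groups. The markers did not move together. RAG1 averaged 150 CPM in treated and 273 CPM in untreated CEM and 383 against 1430 CPM in DND41, while CD79A averaged 23.7 against 22 CPM and 820 against 868 CPM, and BLK 3.23 against 2.48 CPM and 74.2 against 56.2 CPM. The part of these levels in the result for CD79B was not tested.

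POLG, the catalytic subunit of the mitochondrial DNA polymerase, fell in both lineages and farther in the T lines, with 59.8, 48.9 and 59.5 CPM in treated and 224, 227 and 323 CPM in untreated CEM. Responses were -2.20 in CEM and -1.53 in DND41, against -0.58 to -0.03 in the B lines (contrast -1.47 ± 0.21, SE, adjusted p 2e-05). OPN3, an opsin expressed outside the eye, also fell in both lineage means, with responses of -1.94 in CEM and -2.01 in DND41, against -0.78 to 0.27 in the B lines. The other genes were the Rheb-like GTPase RHEBL1 (-1.51), the ephrin ligand EFNA4 (-1.51), the yippee family member YPEL2 (-1.50), the podosome scaffold SH3PXD2A (-1.48), the class IIa histone deacetylase HDAC5 (-1.47) and the zinc finger factor ZNF423 (-1.46), a binding partner of the B-lineage factor EBF1. ZNF423 and RHEBL1 rose in the B lines with no call in the T lines: ZNF423 responses were -0.11 in CEM and -0.50 in DND41, against 0.83 to 1.72 in the B lines. Of these 12 genes, FZD2, RHEBL1, EFNA4 and HDAC5 lost the call with CEM as the only T line, RHEBL1 also without 697 (its response there was 3.35), and HDAC5 also when only REH and 697 stood for the B lineage.

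Among called and separated genes at 1 CPM or more in every line, 53 passed the test in both lineage means with opposite signs, 33 with the T lines up and 20 with them down. Named by size, the first 6 in the first direction were SMAD7, BACH2, SLC16A6, PLXNC1, CLEC2D and CD72. CLEC2D, a C-type lectin recognised by an NK-cell receptor, had a contrast of 1.21 ± 0.17 (SE), with responses of 0.65 in CEM and 1.31 in DND41. Its treated libraries lay below the untreated ones in SUPB15, and the groups overlapped in the other B lines. CD72, an inhibitory co-receptor of B cells, was also expressed in the T lines, with 15.1, 16.5 and 15.7 CPM in treated and 10.4, 10.9 and 11.1 CPM in untreated CEM, and 32.9, 33.8 and 35.8 against 17.5, 20.1 and 18 CPM in DND41. In 697 CD72 had 8.19, 9.51 and 9.93 CPM in treated and 13.5, 21.3 and 18.8 CPM in untreated libraries, and the contrast was 1.19 ± 0.16 (SE, adjusted p 1e-05). In the other direction the 6 genes were PLXNA1, ATP13A2, SH3PXD2A, MXRA7 (-1.17), the chloride channel family member TTYH3 (-1.16) and the transferrin homologue MELTF (-1.16). MXRA7 lost its call without DND41 and when libraries were thinned to the shallowest, and TTYH3 without DND41 and against REH and 697 only. These opposite signs are of lineage means, and single B lines could differ. For MELTF the treated libraries lay above the untreated ones in SUPB15, RS411 and 697, and below them in REH. For MXRA7 they lay above in Nalm6 and RS411, and the groups overlapped in the other B lines. Counting single lines over all 584 called and separated genes, whatever their level, 40 had a positive response in both T lines and a negative one in all 5 B lines, and 30 the reverse.

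**Figure D3:**
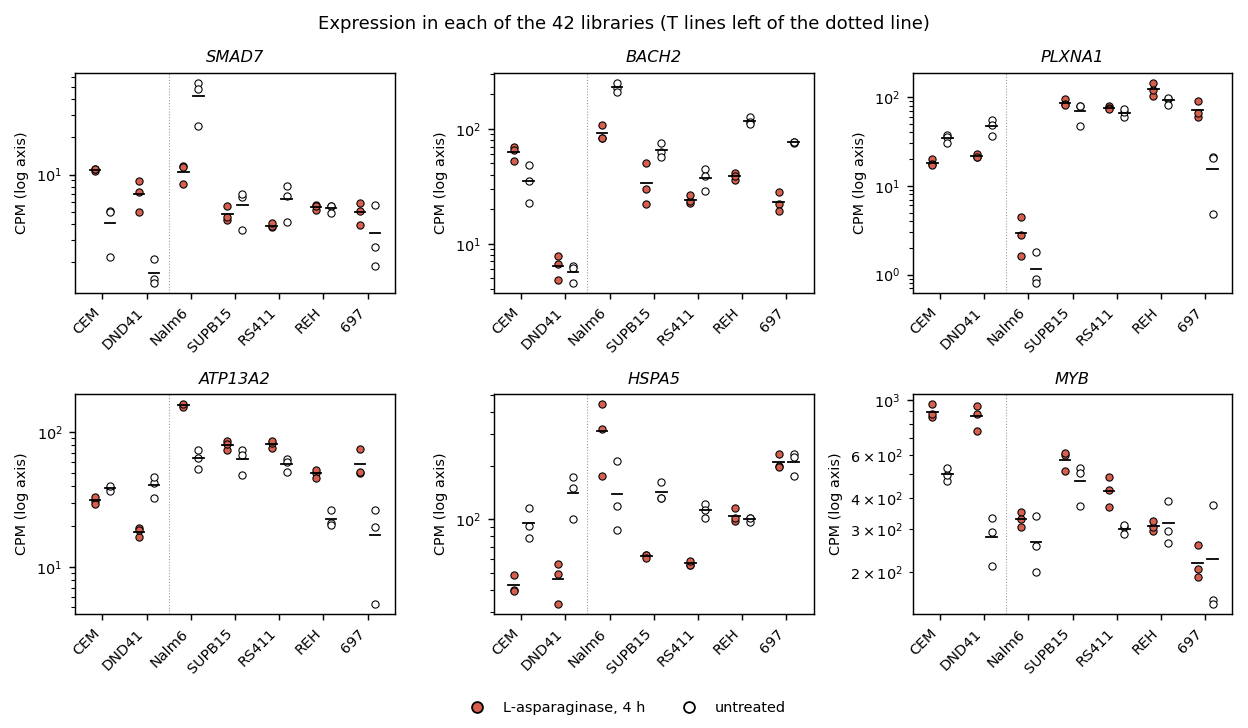
Level (CPM, log axis) of 6 genes in each of the 42 libraries, filled circles for L-asparaginase at 4 h and open circles for untreated, with bars at group means. SMAD7 and MYB are higher in treated than in untreated libraries of both T lines, PLXNA1 and ATP13A2 lower; BACH2 is lower in the treated libraries of every B line, and HSPA5 is lower in CEM, DND41, SUPB15 and RS411.

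A further 45 called and separated genes reached 1 CPM in both T lines but not in every B line. At least 1 of their B-line responses rests on few reads. HES1, the repressor induced by NOTCH, was low in all B lines: its level was 60.7 to 80.5 CPM in treated and 69.1 to 99.8 CPM in untreated CEM, 117 to 147 against 63.7 to 110 CPM in DND41, and at most 3.87 CPM in any B-line library. Its contrast of 2.07 ± 0.62 (SE, adjusted p 0.038) rested on a fall in the B lines (mean response -1.91, with -4.14 in Nalm6). The groups overlapped in CEM, and the call was lost on leaving out any of 16 single libraries. BHLHE40, a basic helix-loop-helix repressor, fell in the B lines (-1.04) and had responses of 0.31 in CEM and 0.68 in DND41. SAMD15 (contrast 2.09), the AP-2 factor TFAP2E (1.92), the lymphocyte GTPase GIMAP1 (1.44) and the complement regulator CD55 (1.35) completed the positive side. SAMD15, GIMAP1 and TFAP2E rose in the T lines, and CD55, at under 2.1 CPM in every T-line library, fell in the B lines.

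On the negative side of that group, MIR210HG, the host transcript of the hypoxia-induced miR-210, fell in both lineages. CEM had 0.0549, 0.136 and 0.15 CPM in treated and 5.71, 6.79 and 13.5 CPM in untreated libraries, and DND41 had 0.134, 0.121 and 0.0297 against 0.952, 4.74 and 11.7 CPM. REH had 0.132, 0.215 and 0.134 CPM in treated and 3.51, 5.34 and 11.5 CPM in untreated libraries, a response of -5.29. The contrast of -2.73 ± 0.75 (SE, adjusted p 0.022) was lost without CEM, without RS411 (response -0.75), without DND41 untreated C, without DND41 L-asparaginase C, without the 3 treated libraries named above, and against REH and 697 only. IGFBP2, an IGF-binding protein, had responses of -0.70 in CEM and -0.86 in DND41 that did not pass as a mean, while it rose on average in the B lines (1.35). Treated libraries lay above untreated ones in 4 B lines, and the groups overlapped in REH (means 405 and 411 CPM). In SUPB15 it was low, at means of 0.397 CPM in treated and 0.0349 CPM in untreated libraries. The protease TMPRSS3 (contrast -2.09), the xylosyltransferase GXYLT2 (-1.90), the pseudogene HNRNPA1P21 (-1.80) and the muscle kinase SPEG (-1.68) completed the 6 genes. In SUPB15 GXYLT2 and SPEG were at 0 in all untreated libraries and in 2 of the 3 treated ones. The call of GXYLT2 was lost on leaving out any of 16 single libraries (contrast -1.18 at its smallest), that of SPEG on leaving out any of 13 (-0.81 at its smallest) and that of HNRNPA1P21 on leaving out any of 3 and with a replicate block. TMPRSS3 lost its call without SUPB15 L-asparaginase C, without DND41, without the 3 treated libraries and when thinned to the shallowest library, and IGFBP2 without DND41 and against REH and 697 only.

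Of 18 stress and early response genes examined whatever their value, DDIT3, VLDLR and EGR1 were called, and none of the 3 was separated. ASNS, asparagine synthetase, had 72.1, 90.5 and 102 CPM in treated and 14.9, 17.4 and 15.3 CPM in untreated CEM, but 1.28, 3.09 and 2.91 against 1.39, 1.96 and 1.74 CPM in DND41. The B lines were as divided, with responses of -0.06 in RS411 and 2.29 in 697. The contrast of ASNS was 0.59 ± 0.22 (SE, adjusted p 0.11), whereas CEM and DND41 differed by 1.97 (adjusted p 0.0019). DDIT3, the pro-apoptotic factor CHOP, had treated libraries above the untreated ones in every line and rose by less in the T lines on average (1.88 against 2.44, contrast -0.56 ± 0.17, SE, adjusted p 0.039). It had 33, 43.8 and 39.4 CPM in treated and 15.9, 18.3 and 21.6 CPM in untreated DND41, and with CEM as the only T line the contrast was 0.26. The contrasts of ATF4 (0.05 ± 0.12), PHGDH (0.01 ± 0.17), SESN2 (-0.00 ± 0.37) and CHAC1 (-0.23 ± 0.36) were not called. VLDLR, a lipoprotein receptor, rose more in the T lines (1.58 against 0.86). EGR1, an immediate early factor, had a contrast of 1.64 ± 0.41 (SE) with responses of -3.99 in Nalm6 and -5.57 in REH, and the call was lost without Nalm6, without REH and without DND41. The call of DDIT3 was lost on leaving out any of 25 single libraries and with a replicate block, and that of VLDLR on leaving out any of 8.

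Gene lists were then read against the background of 2.98% higher and 2.77% lower. Among 22 measured regulators of the integrated stress response, 1 was called higher and 2 lower. Of the latter, PPP1R15A, the phosphatase subunit that reverses eIF2 phosphorylation, had a contrast of -0.88 ± 0.21 (SE). It rose on average in the B lines (0.58) and had responses of 0.09 in CEM and -0.69 in DND41. Treated libraries lay above untreated ones in SUPB15, RS411 and 697, and the groups overlapped in Nalm6 and REH. The call of PPP1R15A was lost without DND41. Among 20 amino acid transporters, 1 was called higher, SLC38A1 (0.50, not called with a replicate block), and 3 lower, SLC38A2 (-0.51), SLC1A4 (-0.47) and SLC6A6 (-0.45). The first 3 are neutral amino acid carriers and SLC6A6 carries taurine. SLC38A2 and SLC1A4 rose in both lineages and by more in the B lines. Among 29 amino acid synthesis and one-carbon enzymes, 0 were called higher and 3 lower: the aspartate aminotransferases GOT1 (-0.67) and GOT2 (-0.36) and glutamine synthetase, GLUL (-0.40). For GOT1 the treated libraries lay above the untreated ones in every line, and for GOT2 and GLUL below them in both T lines and 3 B lines. The call of GOT1 was lost without CEM and without 697, and those of GOT2 and GLUL without DND41. Of 20 cytosolic tRNA synthetases, TARS (0.62), YARS (0.45) and AARS (0.39) were called higher and WARS (-0.67) lower. TARS was separated, with 574 to 671 CPM in treated and 238 to 302 CPM in untreated CEM. These small counts turned on single libraries: leaving out 1 gave 0 to 6 synthetases and 0 to 3 transporters called higher, and 1 to 3 transporters and 2 to 4 synthesis enzymes called lower. Neither the 30 cholesterol synthesis genes nor the 18 cytosolic heat shock genes held a call.

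**Figure D4:**
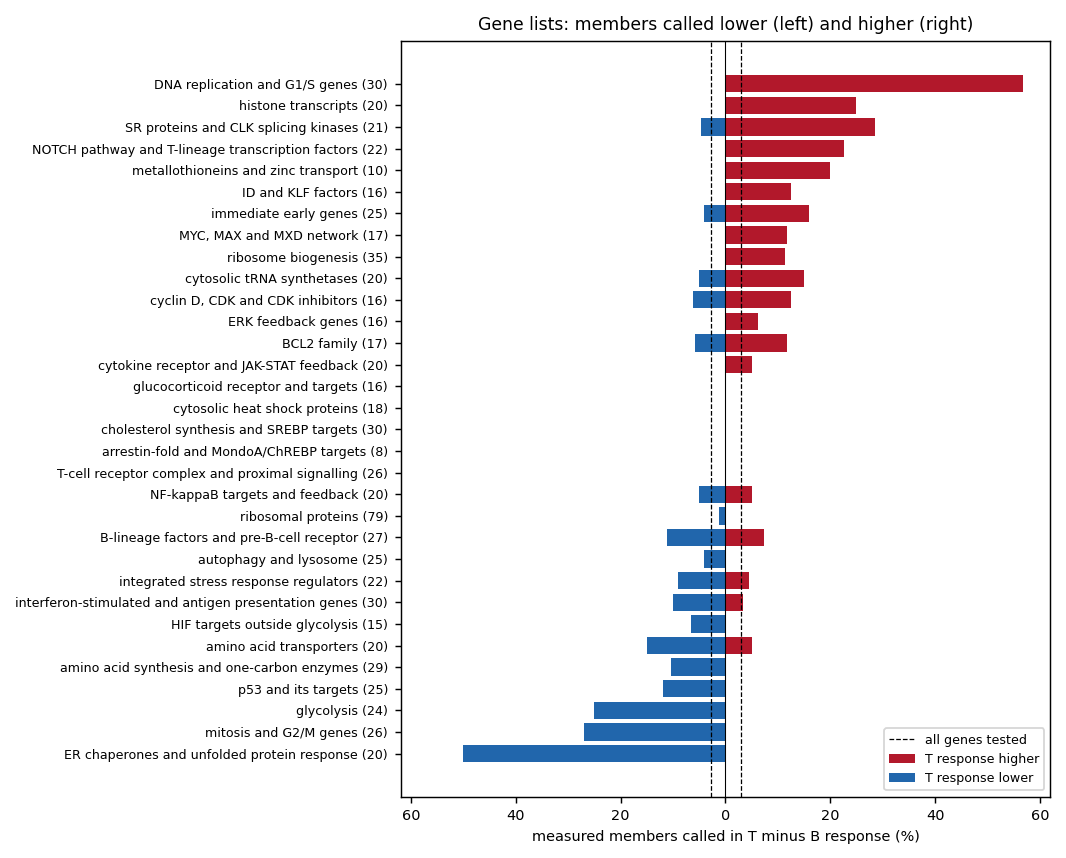
Share of the measured members of each gene list (number in brackets) called with a higher (red, right) or lower (blue, left) response in T lines than in B lines. Dashed lines mark the shares over all genes tested, 2.98% higher and 2.77% lower; the longest bars belong to DNA replication and G1/S genes (56.7% higher) and to endoplasmic reticulum chaperones (50% lower).

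Endoplasmic reticulum chaperones and other genes of the unfolded protein response held 10 calls among 20 measured members, all lower in the T lines, and all 20 contrasts were negative (median -0.53). The 2 T lines had the lowest medians, by a small margin over SUPB15 and RS411. The median response of the 20 genes was -0.25 in CEM and -0.37 in DND41, against 0.73 in Nalm6, -0.20 in SUPB15, -0.19 in RS411, 0.26 in REH and 0.41 in 697. HSPA5, the lumenal chaperone BiP, had 40.1, 48.8 and 39.2 CPM in treated and 92, 78.5 and 116 CPM in untreated CEM, and 33.4, 55.7 and 49.2 against 100, 149 and 173 CPM in DND41. SUPB15 fell to 60.5 to 63 CPM in treated, against 131 to 161 CPM in untreated libraries, and RS411 to 55.4 to 58.4 against 101 to 122 CPM. REH, 697 and Nalm6 overlapped between treatments, and Nalm6 had 174, 442 and 321 CPM in treated and 118, 87.3 and 212 CPM in untreated libraries. The contrast was -1.19 ± 0.20 (SE, adjusted p 0.00025), with responses of -1.16 in CEM, -1.61 in DND41 and -1.19 in SUPB15. HSP90B1, the chaperone GRP94, had nearly the same order of lines (contrast -0.90 ± 0.18, SE). HERPUD1, which takes part in degradation of misfolded proteins, had treated libraries above the untreated ones in all 5 B lines (responses 0.47 to 1.48) and in CEM (0.54), and overlapping groups in DND41 (-0.40). Without DND41, neither HSP90B1 nor HERPUD1 was called. SDF2L1, a lumenal chaperone cofactor, had a contrast of -0.76, and its call was lost on leaving out any of 34 of the 42 libraries. The other 6 called members, named after their values were seen, were PDIA6 (-0.68), XBP1 (-0.63), DNAJC3 (-0.61), CRELD2 (-0.58), HYOU1 (-0.54) and CALR (-0.45), and PDIA6 alone of the 10 was separated. The count was 2 with CEM as the only T line, 6 without 697 and 14 without the 5 untreated libraries named above.

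The 250 bases before the start of each gene were read from RefSeq (GRCh38.p14) for all 10 called members and searched for matches to the ER stress element, which is CCAAT and CCACG with 9 bases of any kind between them, on either strand. The element was searched for after the calls were known. It was found in 5 of the 10 called members (HSPA5, HSP90B1, CALR, XBP1 and CRELD2) and in 1 of the 9 uncalled members with an entry, CANX, against 0.0806% of 27305 promoters. A match is a description of the letters in this window. The promoters of HSPA5 (chr9:125241344-125241593, minus strand) and HSP90B1 (chr12:103930160-103930409, plus strand) are shown because they carry the element and had the largest contrasts of the list, and HERPUD1 (chr16:56931892-56932141, plus strand) because its lines were ordered otherwise. All are written 5′ to 3′ along the gene, and capitals mark matches.
HSPA5: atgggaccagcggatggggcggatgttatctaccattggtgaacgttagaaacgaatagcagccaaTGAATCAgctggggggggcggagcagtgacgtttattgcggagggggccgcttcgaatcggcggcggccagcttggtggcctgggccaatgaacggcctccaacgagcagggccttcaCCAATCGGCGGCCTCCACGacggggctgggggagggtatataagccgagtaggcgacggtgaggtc
HSP90B1: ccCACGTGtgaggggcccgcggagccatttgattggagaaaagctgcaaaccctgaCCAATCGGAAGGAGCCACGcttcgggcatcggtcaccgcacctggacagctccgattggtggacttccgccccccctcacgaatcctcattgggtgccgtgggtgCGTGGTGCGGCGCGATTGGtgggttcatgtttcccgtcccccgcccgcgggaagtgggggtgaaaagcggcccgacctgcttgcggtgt
HERPUD1: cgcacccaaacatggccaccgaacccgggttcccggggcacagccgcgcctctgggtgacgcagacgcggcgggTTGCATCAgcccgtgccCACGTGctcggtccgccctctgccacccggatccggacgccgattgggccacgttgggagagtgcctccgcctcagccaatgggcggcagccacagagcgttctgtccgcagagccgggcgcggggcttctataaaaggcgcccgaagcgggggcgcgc
The capitals in HSPA5 are an AP-1 match (TGANTCA, in 6.6% of promoters) and 1 ER stress element, at -66 to -48 from the start. Those in HSP90B1 are an E-box (CACGTG, in 6.49% of promoters) and 2 ER stress elements on opposite strands. HERPUD1 held no ER stress element of the form searched in this window, and forms with another spacing were not searched for. It held a C/EBP-ATF composite match (TGATG and AA with 1 base between them, in 3.19% of promoters) on the minus strand and an E-box. The same motifs and the CRE (TGACGTCA, in 1.77% of promoters) were searched in the 24 genes of the largest contrasts, 16 of which had an entry. Of these, BACH2 held a CRE, PLXNC1 an AP-1 match and LZTFL1 an E-box, and none of the 8 entries among the genes with negative contrasts held a match. The BACH2 promoter (chr6:90296844-90297093, minus strand) follows, as that of the gene that fell in all 5 B lines, with the CRE at -82 to -75 in capitals.
BACH2: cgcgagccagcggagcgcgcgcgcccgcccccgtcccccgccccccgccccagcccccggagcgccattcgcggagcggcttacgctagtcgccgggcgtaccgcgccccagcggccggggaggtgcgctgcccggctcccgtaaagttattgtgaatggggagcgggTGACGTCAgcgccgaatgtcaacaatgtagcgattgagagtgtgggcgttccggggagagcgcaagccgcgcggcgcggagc

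Of 30 DNA replication and G1/S genes, 17 were called with a higher response in the T lines and 0 with a lower one, and the median contrast was 0.39. The median response was 0.12 in CEM and 0.14 in DND41, against -0.38 in Nalm6, 0.08 in SUPB15, 0.00 in RS411, -0.47 in REH and -0.62 in 697, with the negative medians in Nalm6, REH and 697. CDC25A, the phosphatase that activates CDK2, had 190, 191 and 172 CPM in treated and 98.8, 115 and 88.8 CPM in untreated DND41, and 69.2, 54.2 and 52.3 against 89.2, 126 and 149 CPM in 697. Its contrast was 0.98 ± 0.12 (SE, adjusted p 1.4e-06), and SUPB15 (0.37) lay above CEM (0.23). E2F8 (0.94), CCNE2, a cyclin E (0.79), and the replication initiation factor MCM10 (0.72) followed, and MCM10 was 1 of 6 members both called and separated. RBL1, the E2F-binding pocket protein p107, on the list of cyclins, CDKs and inhibitors, was separated with 194 to 203 CPM in treated and 116 to 130 CPM in untreated CEM and 193 to 232 against 117 to 138 CPM in DND41 (contrast 0.87 ± 0.10, SE). The count of 17 was 5 with CEM as the only T line and 10 with DND41 as the only T line, and between 13 and 17 when single libraries were left out.

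Of 26 mitosis and G2/M genes, 7 were called lower in the T lines and 0 higher (median -0.27), and 5 of the 7 were separated. CDC20, the activator of the anaphase-promoting complex, had 82.7, 74.5 and 78 CPM in treated and 126, 145 and 138 CPM in untreated DND41, while CEM had 161, 173 and 148 against 162, 190 and 160 CPM. Nalm6 had 258, 315 and 208 CPM in treated and 107, 112 and 126 CPM in untreated libraries. The contrast was -0.91 ± 0.15 (SE, adjusted p 0.00015). KIF20A, a cytokinesis kinesin (-0.73), CENPA, the centromeric histone (-0.68), and the phosphatase CDC25B (-0.58) were also separated, and CENPA rose in the B lines (0.92) with no call in the T lines. The call of CDC25B was lost on leaving out any of 13 single libraries. The count was 2 with CEM as the only T line, 4 without Nalm6, 4 without CEM L-asparaginase C or without DND41 L-asparaginase C, and 11 without SUPB15, without the 5 untreated libraries or with a replicate block.

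**Figure D5:**
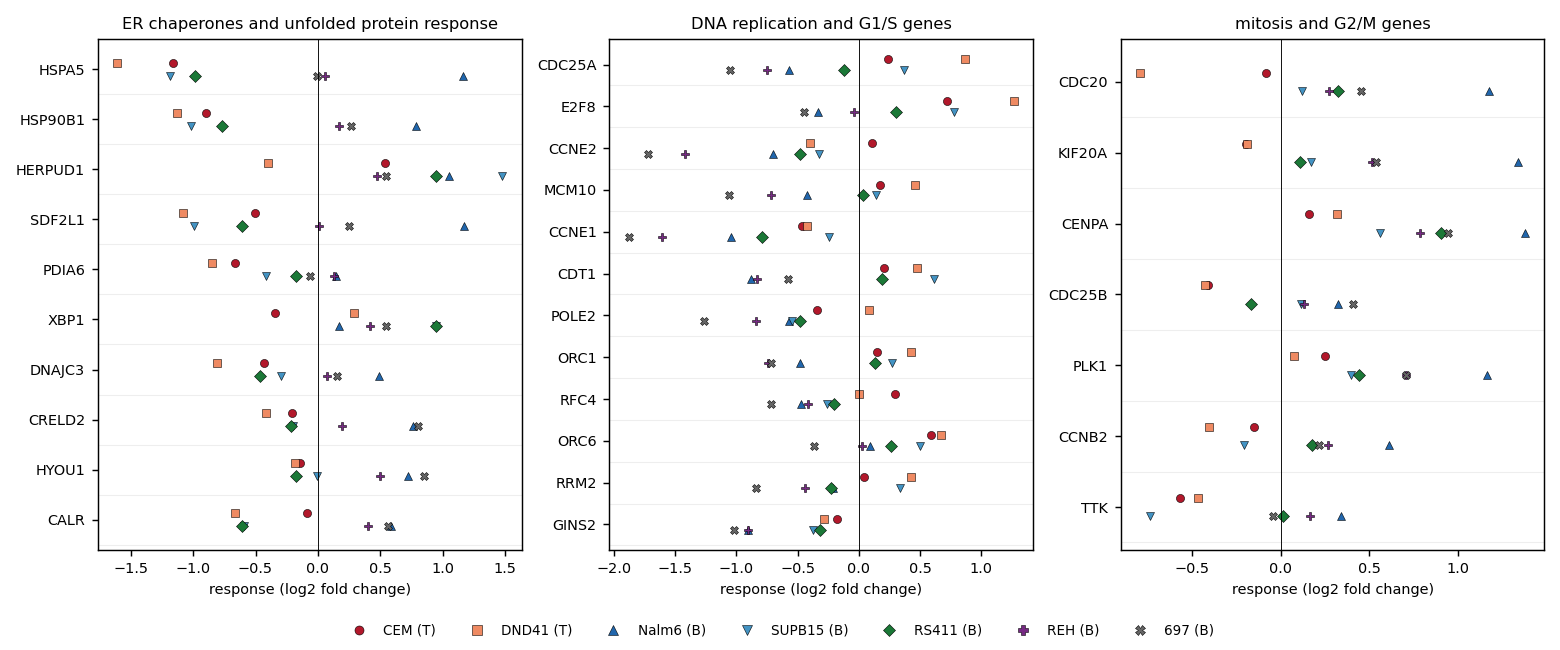
Response of each line (log2 fold change of L-asparaginase over untreated) for called members of 3 lists, at most 12 per list by size of contrast. T lines are drawn above the B lines of a gene; SUPB15 and RS411 lie beside the T lines for HSPA5 and HSP90B1, and Nalm6 has the highest response for 6 of the 7 mitosis genes.

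The list of histone transcripts does not hold HIST1H2BM, described above. Among its 20 measured members, 5 were called higher and 0 lower, with the largest contrasts in HIST2H2AC (1.12 ± 0.29, SE), which was at most 1.45 CPM in DND41, and HIST1H2BC (0.75 ± 0.19, SE). The median response of the histone list was 0.65 in CEM and 1.39 in DND41, against -0.01 in Nalm6, 1.21 in SUPB15, 0.81 in RS411, 0.76 in REH and 0.42 in 697. None of the 5 was separated, and the count was 0 without Nalm6 or with CEM as the only T line, 3 without DND41 untreated B, and 2 without DND41 untreated C or DND41 L-asparaginase B. Of 21 SR proteins and splicing kinases, 6 were called higher and 1 lower. DYRK3, a kinase that dissolves condensates of splicing factors, had treated libraries below the untreated ones in all 5 B lines (-1.35 to -0.53), with responses of 0.22 in CEM and 0.45 in DND41 (contrast 1.19 ± 0.12, SE, adjusted p 1.1e-07). The splicing factors SRSF7 (0.80) and SRSF6 (0.68) were also separated, and SRPK2, which phosphorylates SR proteins, was the member called lower (-0.80 ± 0.09, SE). The count of 6 was 2 with CEM and 3 with DND41 as the only T line.

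The median response of 24 glycolysis genes was -0.80 in CEM and -0.90 in DND41, against -0.65 to -0.09 in the B lines. All 24 contrasts were negative (median -0.49), 6 were called lower and 10 were separated. HK2, the hexokinase that commits glucose to glycolysis, had 24, 24.2 and 22.5 CPM in treated and 47, 35.6 and 68.1 CPM in untreated CEM, and 34.1, 39 and 30.5 against 89, 90.5 and 145 CPM in DND41. SUPB15 had 73.4 to 83.2 CPM in treated and 57.8 to 72 CPM in untreated libraries. The contrast was -0.92 ± 0.17 (SE, adjusted p 0.000812), equal in size to that of PFKL, a phosphofructokinase subunit (-0.92 ± 0.20, SE). The pyruvate kinase PKM (-0.57) and the kinase PDK1 (-0.64) followed. The untreated CEM C and DND41 C libraries held the highest HK2 of their groups. The count of 6 fell to 2 without either of those 2 libraries, to 3 without CEM L-asparaginase A or B and to 1 with CEM as the only T line, and it was 11 without DND41 untreated A, without the 5 untreated libraries or with a replicate block.

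Of 22 genes of the NOTCH pathway and T-lineage factors, 5 were called higher and 0 lower. MYB, a factor of lymphoid progenitors and T-cell leukaemia, rose to 856, 962 and 877 CPM in treated CEM, against 471, 496 and 531 CPM in untreated CEM, and to 753, 947 and 882 CPM in treated DND41, against 333, 292 and 213 CPM in untreated DND41. Its B-line responses ran from -0.05 to 0.52, and the contrast was 1.03 ± 0.19 (SE, adjusted p 0.00065). The call of MYB was lost without DND41. LEF1, a factor of the Wnt pathway and of early T cells, fell in the B lines (-0.93) and had responses of 0.22 in CEM and -0.15 in DND41 (contrast 0.96 ± 0.20, SE). That call was lost without CEM and against REH and 697 only. DTX1, a NOTCH target, rose in both T lines (0.90 in CEM and 0.98 in DND41) and was not separated, since RS411, where it was at most 0.164 CPM, had 1.53. Its call was lost without RS411 untreated B. The count of 5 was 3 without any one of CEM untreated C, CEM L-asparaginase B, DND41 untreated C or DND41 L-asparaginase C, and 2 without DND41 or without Nalm6. None of 26 T-cell receptor and signalling genes was called.

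Of 27 B-lineage and pre-B-cell receptor genes, BACH2 and CD72 were called higher and CD79B, RAG1 and, named after its value was seen, RAG2 (-0.56) lower. The count lower was 1 with CEM as the only T line and 6 with a replicate block. RAG1, which cuts antigen receptor genes for recombination, had 155, 155 and 139 CPM in treated and 269, 277 and 271 CPM in untreated CEM, and 523, 360 and 266 against 1140, 1680 and 1480 CPM in DND41. The groups overlapped in 4 B lines and were higher in treated 697, and the contrast was -1.22 ± 0.20 (SE, adjusted p 0.00011). RAG1 is 1 of the 12 B-lineage markers whose summed level in the T lines is given beside CD79B. Of 30 interferon-stimulated and antigen presentation genes, IFIT1 (-1.37) and IFIT3 (-0.94) were among those called lower and IRF1 (0.41) was called higher, and 11 were separated with the T lines below. The count lower was 0 with CEM as the only T line and 9 without the 5 untreated libraries. IFIT1 was low throughout, at 1.03 to 1.76 CPM in treated and 3.9 to 4.85 CPM in untreated CEM. Of 25 immediate early genes, 4 were called higher and 1 lower, and the count higher was 2 without Nalm6 or REH and 7 without the 5 untreated libraries or with a replicate block. KLF10 was called higher (1.71 ± 0.32, SE), with 49.1, 68.4 and 67.3 CPM in treated and 25.5, 36.8 and 25.7 CPM in untreated CEM and 9.71, 13.8 and 15.1 against 37.1, 68.2 and 87.5 CPM in Nalm6. Its groups overlapped in DND41 (means 57.1 and 49.6 CPM in treated and untreated libraries) and in SUPB15 (41 and 26.5 CPM), and the call was lost without CEM. ID2, an inhibitor of basic helix-loop-helix factors, fell in both lineages and less in the T lines (contrast 1.19 ± 0.29, SE). Of 79 ribosomal protein genes, RPL4 alone was called (-0.75 ± 0.12, SE): it had 440, 435 and 413 CPM in treated and 1340, 1450 and 1350 CPM in untreated DND41, a response of -1.68, against -0.19 in CEM.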

How the data were processed

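Total RNA of the 7 lines was sequenced. Each line has a table of raw read counts as deposited by the authors, whole numbers by gene symbol with no normalization. The submitters' processing notes name the hg19 build. No source used here gives the aligner, counter, annotation or strand setting, so reads of overlapping or antisense genes may be mixed. Columns were assigned by the line and treatment in their names, with replicate numbers for 697 and letters, absent from the labels, for the other lines. Tables were joined on the symbol, and 2 date-like names that occurred more than once were left out. Lowest chi-square per degree of freedom between replicates was 15, so no library was a copy of another in its group. Libraries of different groups were not compared in this way.

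A model with 1 coefficient per group was fitted to all 42 libraries with edgeR 4.0.16 in R 4.3.3 (TMM, filterByExpr with a minimum count of 10, glmQLFit, glmQLFTest), and p-values were adjusted by Benjamini-Hochberg over all genes tested. The test with the line as the unit used limma 3.58.1 on 7 mean differences of log2 CPM (prior count 2). Alternatives included DESeq2 1.42.0. On simulated counts for 20983 genes the model called 95% of 100 genes changed 2-fold and 100% of 100 changed 4-fold between lineages, and 0.0529% of unchanged genes. Changed genes had at least 1 CPM in every line, both T lines were given the same change, and no other response was simulated. These shares therefore leave out the spread of responses between lines of one lineage. The median contrast over all genes was -0.0047 on the log2 scale.

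Members, lists and rules were chosen with earlier results of these data known. Named were the 12 largest contrasts in each direction among called, separated genes at 1 CPM in every line, the 6 largest each way among those at 1 CPM in both T lines and not in every B line, up to 6 each way with opposite calls, 18 stress genes, and up to 4 called members of each of 32 lists. Lists were described by counts and medians. The main model held no pairing, and the replicate block paired treated and untreated libraries of the same letter or number in all 7 lines. Every correlation of their deviations exceeded 0.1 in CEM (lowest 0.16), DND41 (0.29), SUPB15 (0.11), RS411 (0.17) and REH (0.3), but not in Nalm6 (0.043) or 697 (-0.048). The highest correlation of unmatched libraries lay above the lowest matched one in RS411 (0.22), Nalm6 (0.1) and 697 (0.15). At the median total of 40.28 M counts, levels far below 1 CPM rest on few counts.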

Additional observations from a re-analysis of the deposited data

Results flagged for a closer look

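The difference in drug response between the lineages was itself tested, and 1207 genes passed (edgeR adjusted p under 0.05). Of these, 53 were also separated, had at least 1 CPM in every line, and had lineage means called with opposite signs. The 6 largest contrasts each way among the 53 were singled out. The mean of the T lines was up and that of the B lines down for 6 genes, though single B lines could differ. On the log2 scale, the contrast was 2.21 for SMAD7, 1.73 for BACH2, 1.69 for SLC16A6, 1.28 for PLXNC1, 1.21 for CLEC2D and 1.19 for CD72. The mean of the T lines was down and that of the B lines up for the other 6. Their contrasts were -1.90 for PLXNA1, -1.72 for ATP13A2, -1.48 for SH3PXD2A, -1.17 for MXRA7, -1.16 for TTYH3 and -1.16 for MELTF. Groups held 3 libraries, too few for a search, gene by gene, for single libraries far from their group. Libraries that stood apart by small structural RNAs, or by transcripts nearly absent from their line's other libraries, are described above.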

How the results depend on the processing

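The count of genes called stayed within 1.5 times of 1207, and that of genes called and separated within 1.5 times of 584, under the settings not named here. Without DND41 there were 409 genes called, 375 called and separated, and 2672 called in the mean response of the remaining T line. Genes called and separated numbered 1094 without CEM, 921 without SUPB15 and 1404 with REH and 697 alone as B lines, a setting chosen after seeing the data under which the mean response of the B lines had 4210 calls. Without the 5 untreated libraries there were 2238 calls and with DESeq2 1821. Requiring a size of at least 1 left 256 calls and 180 called and separated genes, and the line as the unit left 0 of each. With a replicate block there were 1668 calls and 729 called and separated genes. Leaving out single libraries gave 804 to 1554 calls, 409 to 735 called and separated genes, 4491 to 6182 calls in the mean response of the T lines and 6836 to 7480 in that of the B lines. The contrast of DDIT3 changed sign to 0.26 without DND41 and 0.12 against REH and 697, and that of CDKN1B to -0.36 against REH and 697; the cause was not tested. The share of calls with the T lines higher was 51.8%, 40.8% without Nalm6, 42.8% with upper-quartile scaling and 56.7% without DND41 untreated C. Low counts limit genes under 1 CPM.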
